A study of Mus musculus with 16 samples.

Results

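Proteasome genes were followed through RNA that came down with the transcription factor Sox2 in mouse embryonic stem cells (mESC). The set holds the 50 protein-coding genes, of 53379 genes counted, whose mouse symbol starts with Psma, Psmb, Psmc, Psmd, Psme, Psmf or Psmg followed by a digit. The table has 21865 protein-coding genes in all, and 4 rows whose symbols end in -ps were left out. The rule reads symbols only and used no measured value. It takes in 8 alpha ring genes (Psma1 to Psma8), 7 constitutive beta ring genes (Psmb1 to Psmb7) and 4 inducible or tissue-restricted beta genes (Psmb8 to Psmb11). It also takes in 6 base ATPases (Psmc1 to Psmc6), 11 other regulatory particle subunits and 3 chaperones of regulatory particle assembly, which carry Psmd symbols. The remaining genes are 5 with Psme symbols (activators), the regulator Psmf1, 4 chaperones of core particle assembly (Psmg1 to Psmg4) and Psmc3ip. Psmc3ip encodes a cofactor of meiotic recombination and is not a proteasome subunit.

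The proteasome degrades proteins that carry ubiquitin chains. Its barrel-shaped core particle is built of alpha rings, which gate the entrance, and beta rings, in which Psmb5, Psmb6 and Psmb7 carry the proteolytic sites. The regulatory particle binds the ubiquitin chain, removes it and feeds the unfolded protein into the core by the motor of the Psmc ATPases. The subunits are needed in fixed proportions, and transcription factors such as Nfe2l1 raise the whole set when proteasome activity falls.

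The cells were male mESC kept in LIF (1000 U/mL) with the kinase inhibitors PD0325901 (1 uM) and CHIR99021 (3 uM). They were crosslinked with formaldehyde (fRIP), which links proteins to RNA and to each other, or with ultraviolet light (UV-RIP), which links proteins only to RNA in direct contact. After lysis a Sox2 antibody on magnetic beads gave the IP, and part of the same lysate was kept as input. There were 4 plates per crosslinker, numbered replicates 3 to 6, hence 4 libraries in each of 4 groups and 16 in all. The comparison asks which RNAs are richer in the IP than in the input. An IP with a control antibody was not analysed here, so what beads retain without Sox2 has no value below.

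Totals ran from 17728081 to 21211537 unique molecular identifiers (UMIs, counts of original molecules) in the IP of fRIP and from 13627606 to 15381686 in the fRIP input. They ran from 14218784 to 17281596 in the UV-RIP IP and from 12456298 to 13828610 in the UV-RIP input. Levels are given as CPM, the UMIs of a gene per 1000000 UMIs of its library, and counts cover whole gene bodies with introns. A pair of loci, Gm26917 and Gm42418, took 6.33% to 14.4% of the UMIs in fRIP IP libraries and 6.49% to 10% in fRIP inputs, but 20.5% to 24.7% in UV-RIP IP libraries against 13.7% to 14% in UV-RIP inputs. Every CPM value of the UV-RIP is therefore relative to a total that holds a larger part from these loci in the IP. Of 8 pluripotency markers, 7 had between 73.3 and 1510 CPM in the fRIP input and between 74.8 and 774 CPM in the UV-RIP input. Sox2 itself was counted at 0 UMIs in all 16 libraries. Markers of fibroblasts summed to 5.6 and 2.32 CPM in the fRIP and UV-RIP inputs, and markers of primitive endoderm to 6.63 and 4.86 CPM.

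Proteasome transcripts were plentiful in both inputs. The 50 genes together held 4160 to 5600 CPM in the fRIP input and 3330 to 3540 CPM in the UV-RIP input, and 3000 to 3290 and 2760 to 2920 CPM in the matching IP libraries. In both crosslinkers the ranges of IP and input did not overlap. Over the 46 genes that averaged at least 10 UMIs a library, the median level was 92.0 CPM in the fRIP input, 52.0 in its IP, 54.5 in the UV-RIP input and 42.0 in its IP. Psmb8, Psmb9 and Psmb11 fell under that mean, with 0.9, 4.8 and 7.2 UMIs, and Psmg3 was the next above it with 13.3.

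A single gene, Psme2b, had 0 UMIs in all 16 libraries, where 3 UMIs would be 0.141 to 0.241 CPM. Psme2b encodes a near copy of the activator subunit Psme2 and is a gene of a single exon (GRCm38 chr11:48945354-48946190, minus strand). Its coding sequence matches that of Psme2 (chr14:55587441-55591113, minus strand) over 715 of 720 bases, or 99.3%. The stretch of coding bases 484 to 543 holds 3 of the 5 differences, in capitals below, and is shown for them. The sequences are GENCODE transcripts on GRCm38.
Psme2: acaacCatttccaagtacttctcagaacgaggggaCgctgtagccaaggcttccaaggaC
Psme2b: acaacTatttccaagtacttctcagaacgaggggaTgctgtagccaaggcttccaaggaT
The whole span of Psme2b also lies inside other genes on the same strand, 9930111J21Rik1 and Gm12185. Of 400 protein-coding genes wholly covered by other genes on their own strand, 395 (98.8%) had 0 UMIs in every library. That share was 21.4% among 649 genes wholly covered on the opposite strand only, and 22.1% among 10801 genes that no other gene covers. Sox2 belongs to the first class. Psmg3, a core assembly chaperone, has 85.5% of its span under Gm26938 on the same strand and had 213 UMIs over the 16 libraries. What part the copy and the overlap have in the count of 0 was not tested. Among the 50 genes 12 have a near-identical stretch in another gene, which for Psmd1 (Gm21972) and Psmg3 (Gm26938) overlaps the gene itself, and 13 share part of their span with another protein-coding gene, 8 of them over 10% or more.

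The formaldehyde IP was poorer than its input in the RNA of most proteasome genes. Of the 49 genes tested, 41 were lower in the IP and 0 were higher at an adjusted p below 0.05, by the quasi-likelihood test of edgeR, adjusted after Benjamini-Hochberg over 22936 genes. Among all genes tested 21.9% were lower and 17.6% higher, and among protein-coding genes 28.5% and 20.9%. The 83.7% of the proteasome genes lower is well above both shares. With a fold above 1.5 as well, 30 genes were lower (61.2%) and 0 were higher, beside 10.7% lower and 8.8% higher of all genes. With the fold of 1.5 itself tested, 12 genes were lower. The median log2 fold change was -0.66 over the 49 genes and -0.03 over all genes. In 37 of the 49 genes every IP library was below every input library, which held for 19.2% of all genes, and in 0 was every IP library above, beside 15.3%. All 41 were lower in each of the 4 pairs of IP and input.

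The UV IP was lower too, by smaller amounts. Here 37 of 49 genes (75.5%) were lower and 0 higher, where 29.0% of all genes were lower and 6.6% higher. Among protein-coding genes 37.1% were lower and 8.64% higher. With a fold above 1.5, 2 genes were lower and 0 higher, beside 5.53% and 0.68% of all genes. The 2 were Psmd11 and Psme2. Psmd11 fell short of the fold without replicate 3 or 6 and Psme2 without replicate 5. The median was -0.29 over the proteasome genes and -0.17 over all genes. IP and input did not overlap in 30 of the 49 genes, all with the IP below, against 25.0% of all genes below and 4.93% above. The direction of the smaller UV-RIP changes depends on the scaling. With TMM factors, which moved the median of all genes from -0.17 to 0.01, 19 proteasome genes were lower and 5 were higher (Psmb5, Psmb7, Psmc4, Psmd2 and Psmd3), and their median was -0.11. Without Gm26917 and Gm42418 in the library sizes, 23 were lower and the same 5 higher, with medians of -0.14 (proteasome genes) and -0.02 (all genes). The shares of all genes called under these scalings were not counted, and those above belong to total UMIs.

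Of the 49 genes, 35 were lower in both crosslinkers, 6 in fRIP alone and 2 in UV-RIP alone, Psma8 and Psmf1. The shares of all genes in these joint classes were not counted, so how unusual the 35 are cannot be read. A call in one crosslinker alone is no difference between them, which was tested by an interaction over the 16 libraries. The fRIP change was below the UV-RIP change in 28 genes and above it in 1, Psma8, at an adjusted p below 0.05, while 8.07% of all genes were below and 18.6% above. The median of the difference, fRIP minus UV-RIP, was -0.38 for the proteasome genes and 0.15 for all genes. The crosslinker and the plates it was applied to cannot be told apart in this design.

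**Figure D1:**
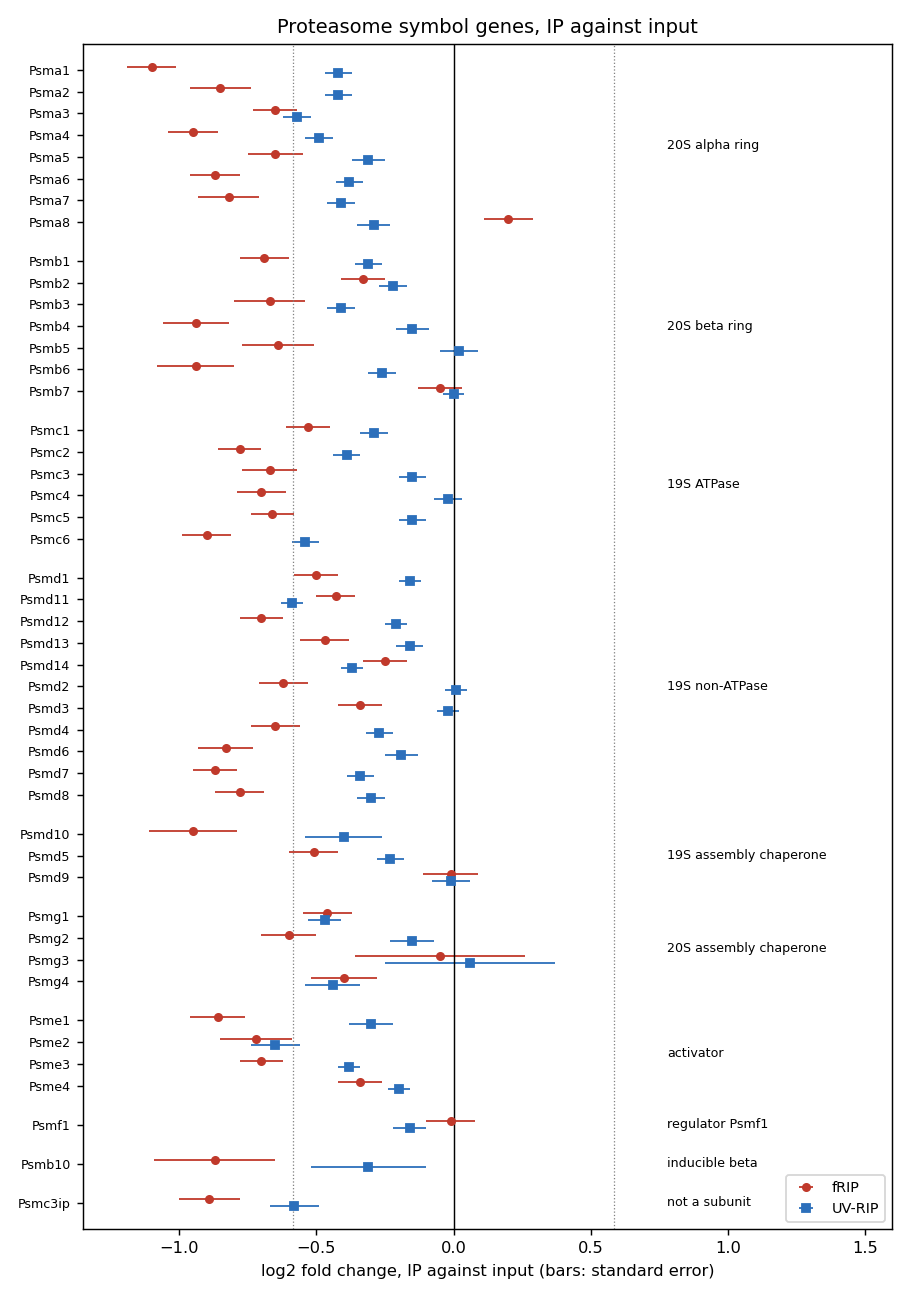
Log2 fold change of IP against input (horizontal axis, bars give the standard error) for the 46 proteasome symbol genes that averaged at least 10 UMIs, grouped by role, in fRIP (circles) and UV-RIP (squares). Dotted lines mark a fold of 1.5, and most fRIP circles lie to the left of the UV-RIP squares, with Psma8 to the right of 0 in fRIP.

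The alpha ring genes, whose products form the gated ends of the core, had the lowest fRIP median of the roles with more than 1 gene. In fRIP 7 of 8 were lower, all 7 by more than 1.5-fold, with a median of -0.83. Psma1 (GRCm38 chr7:114264606-114276118, minus strand) had the lowest value of all 49. Its fRIP input libraries held 62.0, 99.1, 73.6 and 66.6 CPM and its IP libraries 32.4, 39.4, 32.6 and 34.9 CPM, in the order of replicates 3 to 6. Every IP library was well below every input library. The fitted change was -1.10 ± 0.09 (SE), or 2.14-fold lower, with an adjusted p of 8.74e-10. In UV-RIP the Psma1 input held 49.0, 46.1, 42.2 and 46.6 CPM and the IP 36.9, 34.2, 32.8 and 33.6 CPM. These groups did not overlap either, and the change was -0.42 ± 0.05 (adjusted p = 8.99e-14). The difference between crosslinkers was -0.68 ± 0.10 (adjusted p = 1.16e-05).

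Psma4, another alpha ring subunit, followed Psma1. Its fRIP input held 60.3, 88.9, 71.7 and 64.8 CPM and the IP 32.5, 39.8, 36.1 and 38.9 CPM. Again no IP library reached the input, and the change was -0.95 ± 0.09 in fRIP and -0.49 ± 0.05 in UV-RIP. Psma3 was near equal in both crosslinkers. Its change was -0.65 ± 0.08 in fRIP and -0.57 ± 0.05 in UV-RIP, and the difference of -0.08 ± 0.09 did not pass the test (adjusted p = 0.612). Psma3 and Psma4 have processed copies elsewhere, 3 and 1 with at least 95% identity over 100 or more bases, and reads that fit both places were discarded.

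Psma8 encodes the alpha subunit of the testis proteasome, which replaces Psma7 there. In the fRIP input Psma8 held 26.7, 26.2, 28.4 and 25.6 CPM and in the IP 36.0, 31.0, 26.9 and 29.1 CPM. The IP lay above the input in 3 of 4 pairs, with an overlap at replicate 5, and the change of 0.20 ± 0.09 missed the threshold (adjusted p = 0.102). In UV-RIP the input held 38.5, 37.6, 36.3 and 39.5 CPM and the IP 31.2, 28.3, 28.8 and 35.8 CPM. No UV-RIP IP library reached the input, with a change of -0.29 ± 0.06 (adjusted p = 1.77e-06). The difference of 0.49 ± 0.11 was the sole one above 0 that passed the test (adjusted p = 0.00125). The fRIP change of Psma8 passed with TMM factors (0.24), in the joint fit of 16 libraries (0.20) and without replicate 4 (0.18) or 5 (0.29). It was 0.04 with the length trend removed, where the difference was 0.36. Its UV-RIP call was lost with TMM factors (-0.11, adjusted p = 0.136).

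Of the 7 constitutive beta ring genes 6 were lower in fRIP and 5 in UV-RIP, with medians of -0.67 and -0.22. The 3 catalytic subunits follow, and differences between them were not tested. Psmb6 (chr11:70525367-70527858, plus strand), the caspase-like site, held 94.5, 240, 121 and 103 CPM in the fRIP input and 55.2, 63.7, 85.4 and 69.0 CPM in the IP. The input of replicate 4 stood far above the other inputs, and all inputs were above all IP libraries. The change was -0.94 ± 0.14 (1.92-fold lower, adjusted p = 8.45e-06), and -0.61 without replicate 4. In UV-RIP Psmb6 held 73.0, 59.3, 65.1 and 70.8 CPM in the input and 61.7, 55.7, 53.7 and 53.4 CPM in the IP. The highest IP library lay above the lowest input library there, although each pair was lower in the IP. The UV-RIP change of -0.26 ± 0.05 passed the test with total UMIs (adjusted p = 4.96e-07) and was lost in 4 settings. These were TMM factors (-0.08, adjusted p = 0.227), library sizes without Gm26917 and Gm42418 (-0.11, adjusted p = 0.0628), DESeq2 median-of-ratios (-0.08, adjusted p = 0.407) and, at the same -0.26, the joint fit of 16 libraries (adjusted p = 0.176). Its difference between crosslinkers was -0.69 ± 0.19 (adjusted p = 0.00592), and -0.30 without replicate 4. DESeq2 did not call that difference, with total UMIs (adjusted p = 0.0926) or median-of-ratios (adjusted p = 0.0538).

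Psmb5, the chymotrypsin-like site and the target of bortezomib, held 21.8, 52.4, 32.5 and 28.2 CPM in the fRIP input and 17.8, 20.2, 25.3 and 19.9 CPM in the IP. Each pair was lower in the IP while the groups overlapped. The fRIP change was -0.64 ± 0.13 (adjusted p = 1.90e-04) and -0.39 without replicate 4. In UV-RIP Psmb5 held 21.0, 16.9, 16.6 and 20.2 CPM in the input and 20.1, 17.8, 19.5 and 18.3 CPM in the IP. The groups overlapped throughout, with a change of 0.02 ± 0.07 (adjusted p = 0.889). Its difference between crosslinkers was -0.67 ± 0.17 (adjusted p = 0.00334), and -0.39 without replicate 4.

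Psmb7 (chr2:38588036-38644087, minus strand), the trypsin-like site, passed the test in neither IP with total UMIs. It held 128, 152, 126 and 128 CPM in the fRIP input and 137, 141, 108 and 133 CPM in the IP. In UV-RIP it held 138, 127, 139 and 135 CPM in the input and 128, 126, 147 and 138 CPM in the IP. Both pairs of groups overlapped. The fRIP change was -0.05 ± 0.08 and that of UV-RIP 0.00 ± 0.04. The UV-RIP value passed as higher with TMM factors (0.18, adjusted p = 1.29e-05), without Gm26917 and Gm42418 (0.16, adjusted p = 1.37e-04) and with DESeq2 median-of-ratios (0.17, adjusted p = 0.00329). The Psmb7 gene body is 56052 bases long, against 2492 for Psmb6 and 3904 for Psmb5.

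The beta subunit Psmb4, which has no proteolytic site, had the lowest difference, fRIP minus UV-RIP, of the 46 genes that averaged at least 10 UMIs. It held 68.1, 143, 86.1 and 72.9 CPM in the fRIP input and 40.9, 45.9, 51.9 and 46.4 CPM in the IP. Every input library exceeded every IP library, most of all that of replicate 4. In UV-RIP the input held 38.6, 32.1, 33.2 and 35.5 CPM and the IP 34.3, 31.5, 30.4 and 29.9 CPM, which overlap. The change was -0.94 ± 0.12 in fRIP and -0.15 ± 0.06 in UV-RIP (adjusted p = 4.38e-07 and 0.0294). The difference was -0.80 ± 0.15 (adjusted p = 1.86e-04), and -0.52 without replicate 4, where Psma1 had -0.60. The UV-RIP value of Psmb4 turned to 0.03 with TMM factors, and its call was lost without replicate 3, 5 or 6 (adjusted p = 0.114, 0.058 and 0.253).

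**Figure D2:**
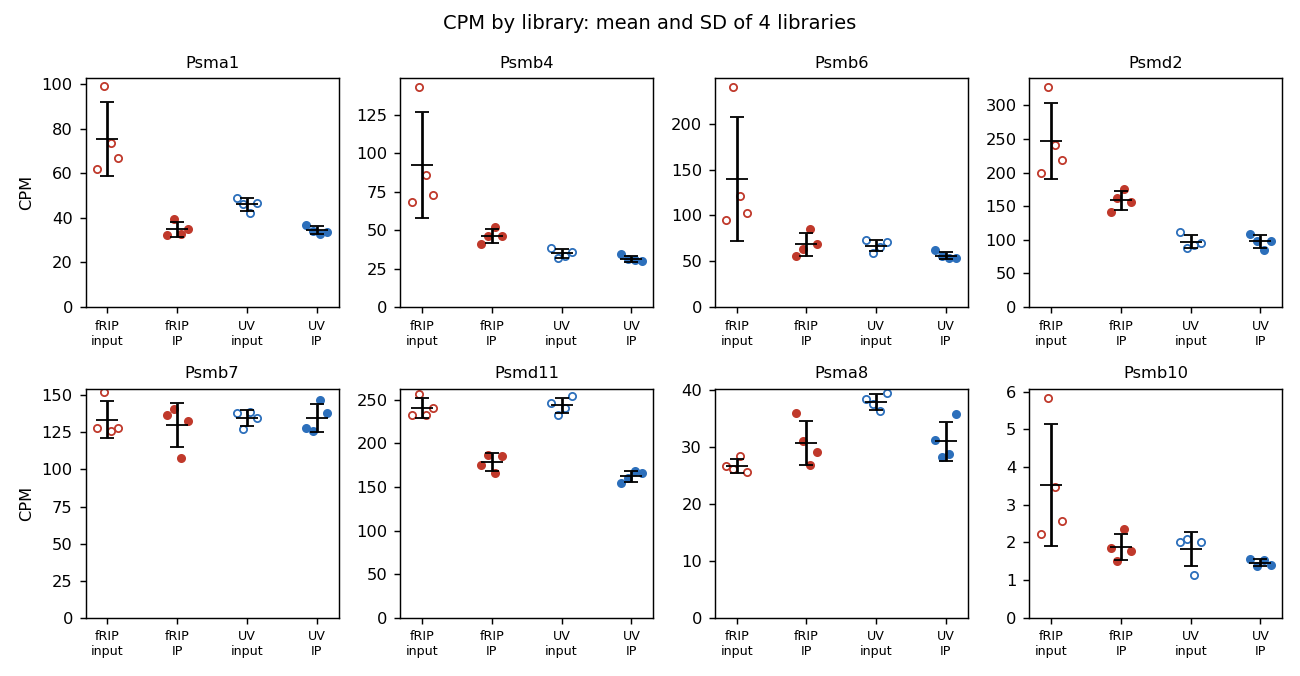
CPM of 8 proteasome genes in each library (vertical axes start at 0), for input (open circles) and IP (filled circles) of fRIP and UV-RIP, with the mean and SD of 4 libraries. The fRIP input of replicate 4 is the highest point for Psmb4 (143 CPM), Psmb6 (240 CPM) and Psmd2 (328 CPM).

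The immunoproteasome subunits, which interferon induces and which take the place of the catalytic subunits in antigen-presenting cells, were barely counted. Psmb8 had between 0 and 4 UMIs in a library and Psmb9 between 2 and 8. Their mean levels were 0.0524 and 0.437 CPM in the fRIP input, 0.0957 and 0.212 CPM in the UV-RIP input. At this depth no difference between IP and input was detectable for them, and no fold is given. Psmb10, the third of this kind, held 2.21, 5.83, 3.47 and 2.57 CPM in the fRIP input and 1.86, 1.51, 2.36 and 1.77 CPM in the IP. Each pair was lower in the IP, the groups overlapped, and the change was -0.87 ± 0.22 (adjusted p = 0.00257), or -0.46 without replicate 4. In UV-RIP its change of -0.31 ± 0.21 did not pass (adjusted p = 0.286). Psmb10 lies wholly within a gene on the opposite strand. Psmb11, the thymus-specific beta subunit, had 1 to 14 UMIs in a library and passed no test.

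All 6 base ATPases, which form the motor ring of the regulatory particle, were lower in fRIP, 5 of them by more than 1.5-fold, with a range of -0.90 to -0.53. In UV-RIP 5 of 6 were lower, from -0.54 (Psmc6) upward, and Psmc4 had -0.02 ± 0.05. All 11 other regulatory particle subunits were lower in fRIP, with a median of -0.62, and 9 of 11 in UV-RIP, with a median of -0.21. They include the scaffold subunit Psmd2, the ubiquitin receptor Psmd4 and the deubiquitinase Psmd14.

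Psmd2 differed between the crosslinkers. It held 199, 328, 241 and 219 CPM in the fRIP input and 141, 162, 176 and 156 CPM in the IP. All inputs lay above all IP libraries, with a change of -0.62 ± 0.09 (adjusted p = 3.55e-06) and -0.48 without replicate 4. In UV-RIP Psmd2 held 111, 88.1, 93.0 and 95.9 CPM in the input and 109, 97.7, 85.3 and 98.8 CPM in the IP. Those groups overlapped, with a change of 0.01 ± 0.04 (adjusted p = 0.929), and the difference was -0.63 ± 0.11 (adjusted p = 5.66e-05).

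Psmd11, a lid subunit, had the lower value in UV-RIP. In fRIP its input held 233, 257, 232 and 240 CPM and its IP 175, 187, 166 and 186 CPM. In UV-RIP its input held 246, 233, 241 and 254 CPM and its IP 154, 160, 168 and 166 CPM. Neither pair of groups overlapped. The change was -0.43 ± 0.07 in fRIP and -0.59 ± 0.04 in UV-RIP (adjusted p = 3.09e-05 and 4.76e-47), and the difference of 0.16 ± 0.08 missed the threshold (adjusted p = 0.145). Without replicate 4 the difference was 0.18 and passed (adjusted p = 0.0274). Psmd14, the deubiquitinase, was lower by -0.25 ± 0.08 in fRIP and -0.37 ± 0.04 in UV-RIP, with a difference of 0.12 ± 0.09 (adjusted p = 0.38). Its fRIP call was lost without replicate 5 (-0.17, adjusted p = 0.124) and without the replicate block (-0.24, adjusted p = 0.149). With the length trend removed the fRIP value was -0.50 and the difference -0.08.

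The chaperones of assembly were mixed. Of the 3 for the regulatory particle, Psmd5 and Psmd10 were lower in both crosslinkers and Psmd9 in neither. Psmd10, also known as gankyrin, held 4.16, 9.98, 6.44 and 6.02 CPM in the fRIP input and 2.54, 3.16, 3.68 and 4.15 CPM in the IP. Its lowest input and highest IP library nearly met, with a change of -0.95 ± 0.16 (adjusted p = 3.44e-05), and -0.68 without replicate 4. Its UV-RIP change was -0.40 ± 0.14 (adjusted p = 0.0132) and was lost with TMM factors (-0.22, adjusted p = 0.261) and without replicate 3 or 5 (adjusted p = 0.057 and 0.0704). Psmd9 had -0.01 under either crosslinker, with 76.1% of its span covered by genes on the opposite strand. Of the 4 core assembly chaperones 3 were lower in fRIP and 2 in UV-RIP. Psmg3, counted at 0.918 ± 0.446 CPM in the fRIP input and 0.872 ± 0.199 CPM in the IP (SD, n = 4), gave -0.05 ± 0.31 in fRIP and 0.06 ± 0.31 in UV-RIP.

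All 4 activators with counts were lower in both crosslinkers. Psme1 and Psme2 form an interferon-inducible cap of the core, Psme3 a nuclear one, and Psme4 a large cap that acts on acetylated histones. Psme2 held 12.1, 10.5, 11.4 and 11.5 CPM in the UV-RIP input and 8.65, 8.48, 5.29 and 6.89 CPM in the IP. The groups did not overlap, and the change of -0.65 ± 0.09 was the lowest of the 49 proteasome genes tested in UV-RIP (adjusted p = 5.20e-11). Without replicate 5 it was -0.52, where Psmc3ip had -0.64 and Psmd11 -0.61. In fRIP its change was -0.72 ± 0.13 (adjusted p = 1.02e-04) and -0.48 without replicate 4. Only reads that cover one of its differences from Psme2b, or bases outside the copy, could be placed on Psme2. Psmf1, a protein that binds and inhibits the core, held 35.2, 32.6, 28.8 and 32.0 CPM in the fRIP input and 29.7, 33.8, 31.8 and 32.1 CPM in the IP. These overlap, with a change of -0.01 ± 0.09. Its UV-RIP change of -0.16 ± 0.06 (adjusted p = 0.026) turned to 0.03 with TMM factors and lost its call without replicate 5 or 6 (adjusted p = 0.206 and 0.157). Psmc3ip, the gene that is no subunit, was lower in both, by -0.89 ± 0.11 in fRIP and -0.58 ± 0.09 in UV-RIP.

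The pairs of IP and input differed in size more in fRIP than in UV-RIP. Over the 46 genes the median log2 ratio of IP to input was -0.54, -0.97, -0.58 and -0.51 in fRIP replicates 3 to 6. In UV-RIP it was -0.30, -0.27, -0.28 and -0.26. Replicate 4 of fRIP was the lowest, and its median over all genes with 10 or more UMIs was 0.05, the highest of the 4. Left out, it took the number of fRIP genes lower by more than 1.5-fold from 30 to 20 and their median from -0.66 to -0.50. The number lower at an adjusted p below 0.05 was 40 without it.

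**Figure D3:**
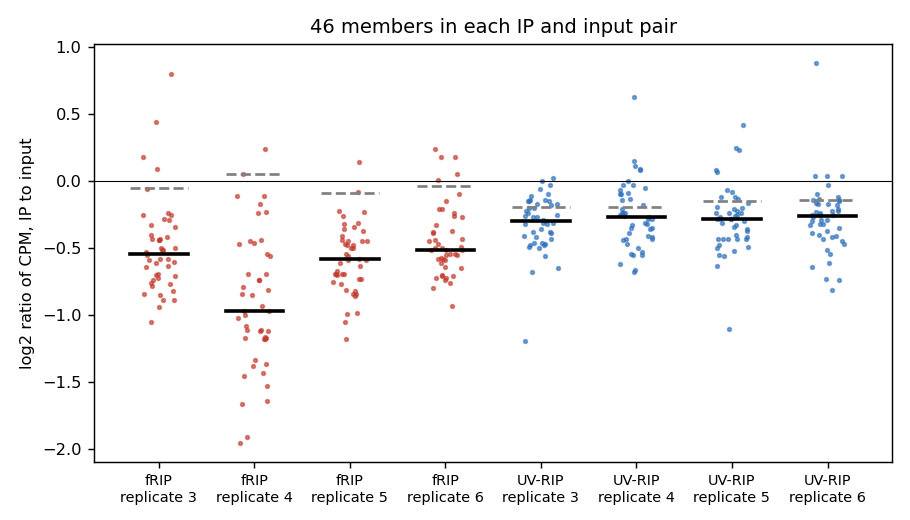
Log2 ratio of CPM, IP to input, of the 46 proteasome genes (points) in each of the 8 pairs, with their median (solid line) and the median of all genes with 10 or more UMIs (dashed line). The median of fRIP replicate 4 is -0.97, and those of the UV-RIP pairs lie between -0.30 and -0.26.

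The inputs themselves differed between crosslinkers. Proteasome RNA took a larger share of the fRIP input than of the UV-RIP input, with 31 genes higher and 2 lower, where 20.2% of all genes were higher and 17% lower. With a fold above 1.5, 22 were higher and 0 lower, beside 10.6% and 9.44% of all genes. The median log2 difference was 0.58 for the proteasome genes and 0.03 for all genes. Without replicate 4 the proteasome median was 0.41, with 29 genes higher and 4 lower. With Gm26917 and Gm42418 out of the library sizes it was 0.48 (all genes -0.06), with 27 higher and 2 lower. Without replicate 5, 26 were higher and 2 lower. In such bulk lysates more RNA per cell and more cells that make it cannot be told apart, and the crosslinker, the way the cells were collected and the plates all differ between these inputs. Psmb4 had the largest difference at 1.41 ± 0.18 (2.65-fold, adjusted p = 1.14e-05), followed by Psmd2 at 1.35 ± 0.13 (2.54-fold, adjusted p = 6.18e-07). Without replicate 4 Psmd2 came first, at 1.14 beside 1.08 for Psmb4, and with the length trend removed at 1.28 beside 1.12. The 2 lower genes were Psmd14 (-0.43 ± 0.07, adjusted p = 1.90e-04) and Psma8 (-0.51 ± 0.08, adjusted p = 9.41e-05). The fRIP input libraries enter both this comparison and that of fRIP IP with input, so a high fRIP input raises the first and lowers the second. Between the IP libraries of the 2 crosslinkers the levels lay closer together, with medians of 52.0 and 42.0 CPM, than between the inputs, with 92.0 and 54.5 CPM. That contrast of medians was not tested.

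**Figure D4:**
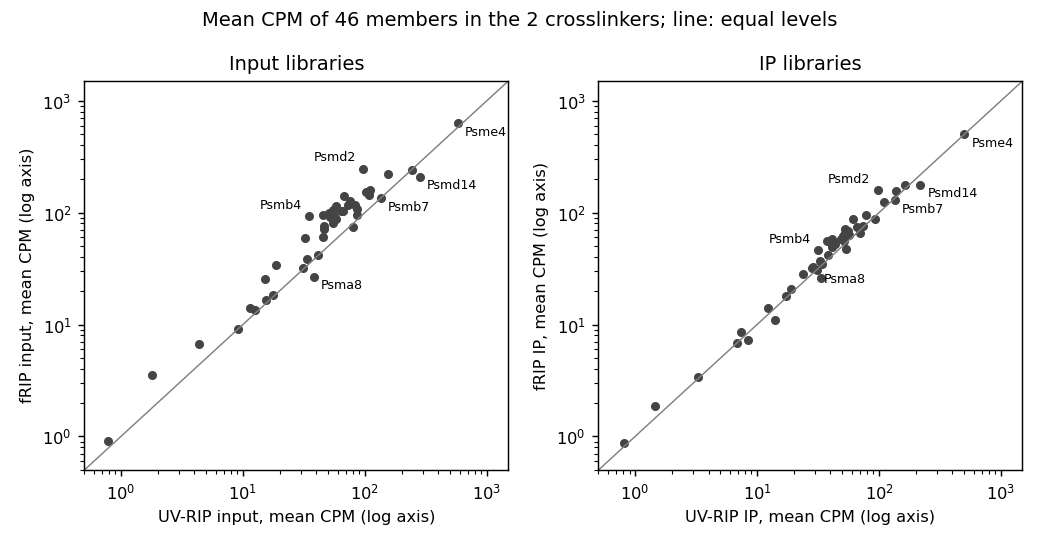
Mean CPM of 46 proteasome genes (log axes) in fRIP against UV-RIP, for the input libraries (left) and the IP libraries (right), with a line of equal levels. Psmb4 (92.5 against 34.8 CPM) and Psmd2 (247 against 97.0 CPM) lie farthest above the line among the inputs.

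The length of the gene body went along with the fRIP change. Over the 46 genes Pearson's r between the fRIP log2 fold change and log10 body length was 0.54 and Spearman's rho 0.57, across genes that share libraries and are not replicates. Over 13243 protein-coding genes with as many UMIs these were 0.55 and 0.54. In UV-RIP they were 0.04 and 0.03 over the proteasome genes and 0.18 and 0.16 over the protein-coding genes. For the difference, fRIP minus UV-RIP, they were 0.56 and 0.55 over the proteasome genes and 0.57 and 0.58 over the protein-coding genes. For the fRIP input against the UV-RIP input they were -0.59 and -0.61, and -0.47 and -0.45. Median changes of the 18 genes with a body under 10 kb were -0.82 (fRIP) and -0.30 (UV-RIP). The 21 genes from 10 to 50 kb had -0.62 and -0.31, and the 7 genes of 50 kb or more -0.25 and -0.20. Between the inputs, fRIP against UV-RIP, the medians were 0.79, 0.42 and 0.05 from the shortest class to the longest. Psma8, Psmb7, Psmd9, Psmd14 and Psme4 are among the 7 long genes, and so is Psma2, whose fRIP change was -0.85 ± 0.11. With a smooth trend on body length removed over all genes, the fRIP median of the proteasome genes was -0.55 and that of UV-RIP -0.26. In fRIP 16 of the 25 genes named by rule then moved by at least 1 SE of their own value. Among the long genes the fRIP value of Psma8 went to 0.04, that of Psmb7 to -0.21, that of Psmd9 to -0.24 and that of Psmd14 to -0.50. Whether the length accounts for the fRIP changes, or for the differences between crosslinkers and between inputs, was not tested.

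**Figure D5:**
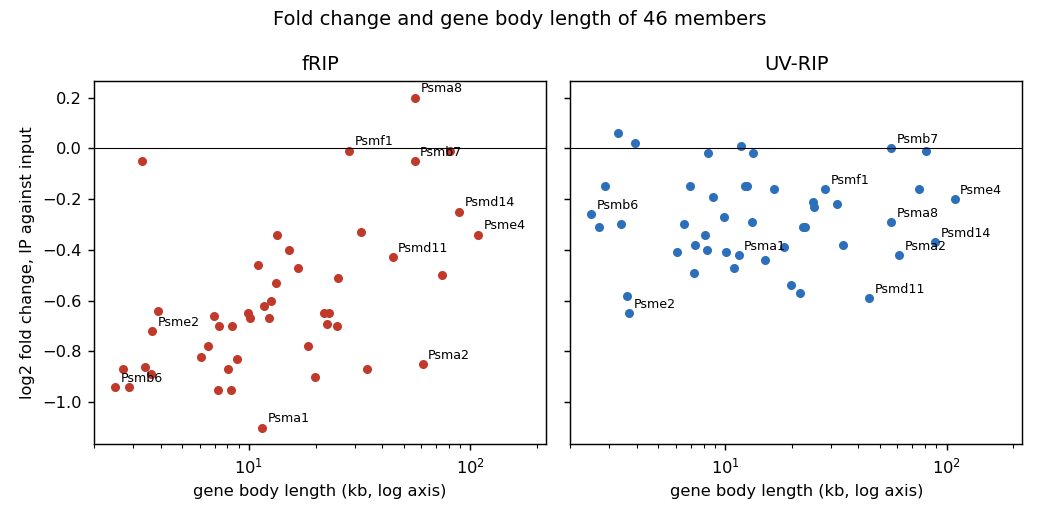
Log2 fold change of IP against input and gene body length (kb, log axis) of the 46 proteasome genes, 1 point per gene, for fRIP (left) and UV-RIP (right). Points rise with length in fRIP (Spearman's rho 0.57) and not in UV-RIP (0.03).

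Levels of single subunits were compared per kb of exon, in the fRIP input. They ran from 83.7 ± 19.6 CPM per exon kb (SD, n = 4) for Psma6 and 83.6 ± 8.49 for the ATPase Psmc5 through 79.0 ± 13 for Psmb2, 75.1 ± 3.76 for Psme4 and 74.5 ± 36.1 for Psmb6 down to 2.07 ± 0.957 for Psmb10. Psmg3, Psmb9, Psmb11, Psmb8 and Psme2b followed, the last at 0. The median of the 46 genes was 31.6 CPM per exon kb in the fRIP input and 20.7 in the UV-RIP input. In this order 45 of 49 neighbours lay within 1 SD of each other, so most single ranks are not resolved. The order was much the same in the UV-RIP input (Spearman's rho 0.93 over the 50 genes), with Psmd14 first at 100 ± 1.43 CPM per exon kb. It changed more when levels were divided by body length (rho 0.69). By body length Psmb6, Psmb4 and Psmd2 came first in the fRIP input, and Psma6, Psmb2 and Psmd14 stood at ranks 31, 32 and 36. Of the 10 highest, 4 were shared by both orders.

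Promoter windows of the subunit genes were read for 2 motifs. TGANNNNGC is the core of the antioxidant response element, which Nfe2l1 and Nfe2l2 bind with small Maf proteins, and CCAAT is the box of NF-Y. RefSeq windows of 300 bases around the start, on GRCm38.p6, were found for 42 of the 50 genes, 45 windows in all. TGANNNNGC, on either strand, lay in 26 of these (57.8%) and in 41.3% of 32851 windows of all genes. CCAAT, on either strand, lay in 15 (33.3%) and in 37.4% of all windows. The windows of 2 catalytic subunits, of Psma1, which had the lowest fRIP change, and of the barely counted Psmb8 are given with matches in capitals, 5′ to 3′ on the strand of the gene. They are Psmb5 (chr14:54617946-54618245, minus strand), Psmb6 (chr11:70525107-70525406, plus strand), Psma1 (chr7:114276067-114276366, minus strand) and Psmb8 (chr17:34197945-34198244, plus strand).
Psmb5: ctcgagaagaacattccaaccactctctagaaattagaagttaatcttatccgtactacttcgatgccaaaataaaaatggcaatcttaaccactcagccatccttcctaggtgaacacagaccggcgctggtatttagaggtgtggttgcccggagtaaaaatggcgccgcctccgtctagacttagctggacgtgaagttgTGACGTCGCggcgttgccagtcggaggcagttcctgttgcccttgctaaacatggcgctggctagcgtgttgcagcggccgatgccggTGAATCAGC
Psmb6: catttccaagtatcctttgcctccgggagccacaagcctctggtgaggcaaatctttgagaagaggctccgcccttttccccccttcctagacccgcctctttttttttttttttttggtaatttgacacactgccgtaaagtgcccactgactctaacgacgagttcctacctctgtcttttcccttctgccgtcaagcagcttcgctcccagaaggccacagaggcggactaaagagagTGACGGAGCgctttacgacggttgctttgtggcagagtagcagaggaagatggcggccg
Psma1: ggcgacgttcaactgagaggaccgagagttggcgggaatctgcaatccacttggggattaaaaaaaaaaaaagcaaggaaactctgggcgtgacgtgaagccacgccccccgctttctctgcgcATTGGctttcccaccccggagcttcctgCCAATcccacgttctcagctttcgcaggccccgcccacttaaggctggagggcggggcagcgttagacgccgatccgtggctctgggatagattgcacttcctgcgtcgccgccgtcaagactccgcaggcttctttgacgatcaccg
Psmb8: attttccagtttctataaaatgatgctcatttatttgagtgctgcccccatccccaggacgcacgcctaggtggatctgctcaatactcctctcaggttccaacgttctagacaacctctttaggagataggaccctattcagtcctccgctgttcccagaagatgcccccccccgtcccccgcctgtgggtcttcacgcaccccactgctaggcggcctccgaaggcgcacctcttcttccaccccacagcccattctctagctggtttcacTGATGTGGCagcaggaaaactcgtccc
Psmb5 and Psmb6 hold 2 and 1 matches to TGANNNNGC, and Psmb8 holds 1. Psma1 holds CCAAT on each strand and no TGANNNNGC. A match is a run of letters, and binding was not measured here.

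Other genes of the pathway had medians nearer to 0, a contrast that was not tested. Of 35 genes that encode further proteasome components, ubiquitin and its carriers, and regulators of proteasome transcription, 19 were lower and 2 higher in each crosslinker, with medians of -0.33 (fRIP) and -0.20 (UV-RIP). The share lower was 54.3% in each, beside 21.9% (fRIP) and 29% (UV-RIP) of all genes. All genes had medians of -0.03 and -0.17, and the UV-RIP median of these 35 lay near the latter. Of 8 components with other symbols 5 were lower in fRIP (62.5%) and 6 in UV-RIP (75%). They include the proteasome-bound deubiquitinases Usp14 (-0.69 ± 0.08 in fRIP, -0.58 ± 0.04 in UV-RIP) and Uchl5 (-0.82 ± 0.09 and -0.77 ± 0.06), and the core maturation factor Pomp (-0.55 ± 0.08 and -0.22 ± 0.06). Of 20 ubiquitin and shuttle genes 13 were lower in fRIP (65%), 11 in UV-RIP (55%) and 0 were higher. The lowest was Rps27a, which encodes ubiquitin fused to a ribosomal protein, at -1.32 ± 0.16 in fRIP and -0.88 ± 0.04 in UV-RIP. Without fRIP replicate 4 the fRIP value of Rps27a was -0.96. Uba6, a ubiquitin-activating enzyme, had -0.97 ± 0.09 in fRIP and -0.48 ± 0.05 in UV-RIP. Ubb, a polyubiquitin gene, had -0.97 ± 0.08 and -0.38 ± 0.06.

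Of 7 transcriptional regulators of the subunits, 2 were higher (28.6%, all genes 17.6%) and 1 lower (14.3%, all genes 21.9%) in fRIP. In UV-RIP 2 were higher (28.6%, all genes 6.6%) and 2 lower (28.6%, all genes 29%). Nfe2l1 was lower in fRIP (-0.38 ± 0.08, adjusted p = 1.77e-04) and had -0.06 ± 0.04 in UV-RIP. Of the small Maf genes, Mafg had 0.49 ± 0.08 in fRIP (adjusted p = 8.77e-06) and -0.10 ± 0.04 in UV-RIP (adjusted p = 0.0541). Mafk held 10.3 ± 0.932 CPM in IP libraries of fRIP and 6.44 ± 0.348 CPM in their inputs (SD, n = 4), with a change of 0.67 ± 0.11 (adjusted p = 2.92e-05), and rose by 0.42 ± 0.10 in UV-RIP (adjusted p = 1.25e-04). Maff, at 2.08 ± 0.271 and 1.43 ± 0.277 CPM in fRIP, had 0.55 ± 0.22 (adjusted p = 0.052) and in UV-RIP 0.59 ± 0.21 (adjusted p = 0.0162). The UV-RIP call of Maff was lost without replicate 3 or 6 (adjusted p = 0.0888 and 0.166) and with DESeq2 on total UMIs (adjusted p = 0.187). The fRIP value passed in 6 other settings, with adjusted p from 0.008 (without replicate 4) to 0.0488 (a filter of 10 UMIs in 4 libraries).

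Genes of other large complexes were lower as well. Of 79 cytosolic ribosomal protein genes tested, 78 were lower in fRIP with a median of -0.99, and 75 in UV-RIP with a median of -0.55. Of 75 mitochondrial ribosomal protein genes, 60 were lower and 4 higher in fRIP with a median of -0.63, and 55 lower and 1 higher in UV-RIP with a median of -0.35. Of all genes 21.9% were lower and 17.6% higher in fRIP, and 29% and 6.6% in UV-RIP. The proteasome medians of -0.66 and -0.29 were near those of the mitochondrial ribosome. The difference between these lists was not tested.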

How the data were processed

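RNA of Sox2 IP and input was counted in 16 libraries. The authors mapped reads with STAR to GRCm38 (mm10 in the labels), discarded reads that were not unique, and deposited raw UMI counts over gene bodies of GENCODE vM16, with a length column that equals the gene span. Versions and the strand setting are not given in the sources used here. The number of sample columns left unused was 0.

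Counts went into edgeR 4.0.16 (R 4.3.3). A gene needed 3 UMIs in any library, which left 22936 genes, tested by the quasi-likelihood test with total UMIs as library size and Benjamini-Hochberg adjustment. Replicate number was a block within each crosslinker, plate a block in the interaction, and the inputs of the crosslinkers were compared without a block. The IP and input of a number share a lysate by the study's methods. Their deviations from the group means correlated by 0.60, 0.11, 0.60 and 0.32 in fRIP replicates 3 to 6 and by 0.27, 0.21, 0.44 and 0.03 in UV-RIP, over 10208 genes. Replicates of a group differed beyond sampling noise, with a chi-square per gene of 1.51 to 62.7 between libraries. The fRIP input of replicate 4 differed from the other fRIP inputs by 40.2 to 51.5, and these among themselves by 3.14 to 13.3. The fRIP IP of replicate 5 differed from the other fRIP IP libraries by 39.7 to 62.7, and these among themselves by 5.38 to 6.27. SE is the log2 fold change over the root of its F statistic. CPM and SD are over 4 libraries. Depth was 12456298 to 21211537 UMIs, and floors of 3 UMIs cover counting error only. DESeq2 1.42.0 gave alternatives. The fits were also run on simulated counts, with results that are not given here.

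The members and gene lists were chosen with earlier results of these data known. Named with tests are the catalytic and inducible beta genes, Psmc3ip and Psme2b, the 4 highest and 4 lowest members in each crosslinker among those with a mean of 10 or more UMIs, and the 2 highest and 2 lowest in the interaction, in the input comparison (members) and among the pathway genes. Psmc4, Psmd3, Psmc6, Psma2, Usp14, Pomp, Nfe2l1, Mafg and Ubb were named after their values were seen, as were members named for their level. Of 36 pathway genes listed, 35 were found. Gene coordinates are from GENCODE vM21 for the 42 members whose identifier and version match, with none for the others, and promoter windows are from RefSeq. The alternatives were TMM factors, library sizes without Gm26917 and Gm42418, other count filters, DESeq2 with total UMIs or median-of-ratios, no block, a joint fit of the 16 libraries, each replicate left out, the fold of 1.5 itself tested, and a trend on gene length removed.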

Additional observations from a re-analysis of the deposited data

Results flagged for a closer look

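In fRIP replicate 4 the log2 ratio of IP to input lay far from the other replicates for the median of the 46 proteasome genes (-0.97, others -0.58 to -0.51), for Psmb4 (-1.64, others -0.74 to -0.65) and for Psmd2 (-1.02, others -0.50 to -0.45). These were 3 of 38 groups of 4 values examined. All 3 rest on the same pair of libraries, so they are not independent of each other. How many such flags chance would give was not tested.

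The change in fRIP minus that in UV-RIP passed the interaction test for 8 of the genes that the naming rule takes. It was -0.80 for Psmb4, -0.69 for Psmb6, -0.68 for Psma1, -0.67 for Psmb5, -0.63 for Psmd2, -0.48 for Uba6 and -0.46 for Psma4, with UV-RIP the nearer to 0 in each. Without replicate 4 the value of Psmb6 was -0.30. It was 0.49 for Psma8, the single gene of these with fRIP above UV-RIP.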

How the results depend on the processing

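In fRIP the count of proteasome genes lower in the IP was 39 to 41 in every other setting that gives such a count except the test of the 1.5-fold itself, where 12 genes passed in place of 30. In fRIP the count of genes higher was 1 (Psma8) with TMM factors and in the joint fit, and 0 to 1 with each replicate left out. In UV-RIP the calls moved with the scaling and the model. Genes lower numbered 19 with TMM factors, 23 without Gm26917 and Gm42418 and 15 with DESeq2 median-of-ratios, in place of 37. Under these 3 scalings genes higher numbered 5, 5 and 3, and the medians were -0.11, -0.14 and -0.12. The shares of all genes called under them were not counted. None of the 3, nor the test of the 1.5-fold itself, left a gene lower by more than 1.5-fold in UV-RIP (0 in each). Genes lower numbered 30 with DESeq2 on total UMIs and 29 in the joint fit of 16 libraries, where Psmd11 and Psme2 stayed lower by more than 1.5-fold. UV-RIP Psmf1 turned to 0.03 with TMM factors and 0.02 with median-of-ratios, and Psmb4 to 0.03, 0.03 and, without Gm26917 and Gm42418, 0.01. A change of sign was read only where either value passed the threshold. With each replicate left out the UV-RIP median was -0.32 to -0.26 and its genes lower by 1.5-fold numbered 1 to 3. Psmd11 was not among them without replicate 3 or 6, nor Psme2 without replicate 5. The UV-RIP median was -0.26 with the length trend removed.

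Without fRIP and UV-RIP replicate 4, genes higher in the difference numbered 2 (Psma8 and Psmd11) in place of 1 (range 1 to 2), and genes lower in the fRIP input 4 in place of 2 (range 2 to 4). Genes lower by 1.5-fold in the fRIP input numbered 1 without Gm26917 and Gm42418. Without the replicate block 40 genes were lower in fRIP and 35 in UV-RIP, and 21 were lower and 1 higher in the difference. With the replicate block 30 were higher and 2 lower in the fRIP input. The causes were not tested. Depth limits Psmb8, Psmb9 and Psmb11, with 0 to 4, 2 to 8 and 1 to 14 UMIs in a library.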
